A study of Mus musculus with 4 samples.

Results

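Ceramides, the sphingolipids from which they are made and into which they are broken down, and the lipids that form the skin barrier were followed at the level of mRNA in the epidermis of Irx5+/+ and Irx5-/- mice, Irx5 being a transcription factor of the Iroquois family. The set held 42 genes, chosen by name: a gene was a member when its symbol was one of 42 listed symbols, and each stood on 1 row of a table of 23847 rows under 23359 symbols. By role, 16 members make sphingoid bases, ceramides and the complex sphingolipids, 12 break these down, 6 elongate very long chain fatty acids, and 8 move or oxidise the lipids of the lamellar granules. Back skin of mice at postnatal day 20 was treated with 0.25% trypsin for 2 h at 34 °C, the epidermal side was separated mechanically, and the filtered suspension was used for bulk RNA sequencing. The 2 WT libraries came from Irx5+/+ mice and the 2 Irx5KO libraries from Irx5-/- mice, and no other allele or agent is named for either genotype. The design text counts 2 mice per genotype. The labels do not describe the construction of the null allele, the strain or the litters. The deposited unit is FPKM, in which fragments are scaled to the length of the transcript and the size of the library, so that levels of different genes can be set side by side per length.

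In keratinocytes, sphingolipid synthesis starts when serine palmitoyltransferase joins serine to a fatty acyl chain, and ceramide synthases then attach a second acyl chain whose length depends on the synthase. Ceramide is the branch point: it can be glucosylated, converted to sphingomyelin, or cleaved to sphingosine, which is phosphorylated to sphingosine 1-phosphate. In the granular layer, glucosylceramides and sphingomyelin packed in lamellar granules are secreted and turned back into ceramides, and acylceramides of ultra long chains are oxidised and bound to the cornified envelope, so that loss of many of these genes causes ichthyosis in humans.

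The libraries were of similar estimated depth, at which 1 FPKM on a transcript of 2000 bases is worth 94.5 to 108 fragments. These depths are estimates from the spacing of low values with an assumed fragment of 200 bases. Irx5 itself stood at 17.4 and 16.4 FPKM in the WT libraries and at 10.01 and 10.08 in the Irx5KO libraries, and fell by 0.70 on the log2 scale (SE 0.162, adjusted p = 0.0117). The remaining signal was not resolved to exons here. Keratinocyte markers were abundant, with Krt14 at 1520 FPKM or more in every library, whereas the fibroblast markers summed to at most 4.37, the endothelial ones to at most 1.41 and the muscle ones to at most 0.256 FPKM. Xist was 36.6 and 33.9 FPKM in WT and at most 0.0606 in Irx5KO, and the Y-linked Eif2s3y was at most 0.0422 in WT and 70.9 and 75.7 in Irx5KO. The WT libraries thus had the pattern of females and the Irx5KO libraries that of males, so that sex and genotype cannot be told apart in any comparison given here. In bulk tissue, fewer cells of a type and less RNA per cell cannot be told apart either.

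Marker lists of the cells in the epidermis also differed between the libraries, not always as a whole. The 5 basal markers summed to 9904 and 9779 FPKM in WT against 5898 and 5273 in Irx5KO. Only Krt14 of the 5 passed, falling from 4807 and 5211 to 1520 and 1576. Krt5 was 4394 and 3841 in WT and 3429 and 2976 in Irx5KO, lower without overlap but without passing. Itgb4, at 57.4 and 58.9 against 84.1 and 64.9, and Col17a1, at 601 and 599 against 802 and 608, were higher, also without passing. Itga6 overlapped, at 44.5 and 68.3 against 63.5 and 48.5. The 7 granular markers used summed to 1605 and 1245 against 692 and 1130, a sum carried by Lor (1086 and 649 against 304 and 570), and Ivl and Tgm1 fell, Casp14 rose and 4 did not pass. The 9 hair shaft and matrix markers summed to 7.85 and 6.84 FPKM in WT and to 22.2 and 19.9 in Irx5KO. All 6 that passed the filter rose, beside 26.9% of all rows. After scaling by the median of ratios or by quantiles 3 of 6 rose, beside 10.7% and 13.1%. Krt33a and Krt36 were under 1 FPKM in both WT libraries and passed the filter only through Irx5KO, so the filter itself set their direction. The 5 suprabasal markers summed to 8705 and 6447 in WT and to 7751 and 8371 in Irx5KO, a sum in which single genes differ. Dsg1a, at 159 and 179 in WT and 334 and 331 in Irx5KO, and Dsc1, at 41.6 and 43.65 against 79.5 and 82.35, rose. Krt1, Krt10 and Sbsn did not pass. Langerhans cell markers summed to 1189 and 766 in WT and to 361 and 481 in Irx5KO. Of these, Cd207, Cd74 and H2-Ab1 fell, whereas H2-Aa, Epcam and Ptprc did not pass. H2-Aa was 196.5 and 32.4 in WT and 17.2 and 36.8 in Irx5KO, and Ptprc 5.84 and 4.31 against 5.32 and 5.17, both with overlap. The 13 immediate-early genes summed to 12690 and 11510 against 2579 and 4888. None of these lists has a member of the lipid set, and their part in the results below was not tested.

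Promoters of 3 members whose calls held under each scaling are printed for reference, because the results below turn on these genes. They are the 250 bases before the annotated start, from RefSeq on GRCm38.p6, 5′ to 3′ on the strand of the gene, and capitals mark each match to GGGCGG, the GC box bound by Sp factors, on either strand. Sptlc2, at chr12:87388356-87388605 on the minus strand, encodes a subunit that carries the catalytic site of serine palmitoyltransferase. Elovl7, at chr13:108214154-108214403 on the plus strand, encodes a fatty acid elongase, and Sgpp1, at chr12:75735730-75735979 on the minus strand, encodes a sphingosine 1-phosphate phosphatase.
Sptlc2: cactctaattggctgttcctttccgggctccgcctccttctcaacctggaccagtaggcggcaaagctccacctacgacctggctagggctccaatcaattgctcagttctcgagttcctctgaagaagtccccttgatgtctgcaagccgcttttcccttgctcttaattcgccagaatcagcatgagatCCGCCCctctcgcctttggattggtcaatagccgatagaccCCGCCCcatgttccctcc
Elovl7: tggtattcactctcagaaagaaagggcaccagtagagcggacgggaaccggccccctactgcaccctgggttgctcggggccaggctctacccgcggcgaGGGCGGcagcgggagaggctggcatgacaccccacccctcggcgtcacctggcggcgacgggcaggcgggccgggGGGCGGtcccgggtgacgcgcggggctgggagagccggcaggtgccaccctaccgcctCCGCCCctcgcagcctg
Sgpp1: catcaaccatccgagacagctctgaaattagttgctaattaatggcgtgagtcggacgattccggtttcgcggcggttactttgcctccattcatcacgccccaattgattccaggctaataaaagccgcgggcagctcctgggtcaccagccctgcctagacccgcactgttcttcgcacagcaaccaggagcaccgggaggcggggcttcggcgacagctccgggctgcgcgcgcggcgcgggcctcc
The Sptlc2 promoter, of a gene that fell, held 2 GC boxes, which begin at -59 and -18 counted from the start. The Elovl7 promoter, of a gene that rose, held 3, which begin at -150, -75 and -17. Sgpp1, which also rose, had none in this window.

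One promoter of Sgms2, which encodes a sphingomyelin synthase and had the lowest log2 change of the 41 members tested, is shown for its match to TGANTCA, the AP-1 element, in capitals. It lies at chr3:131490661-131490910 on the minus strand, before 1 of 6 starts that RefSeq gives for the gene. The window before another of these starts also held the element, beginning at -176, and is not printed. Bases just after the start were found in the part of annotated transcripts searched for Sptlc2, Elovl7 and Sgpp1, but for neither of these Sgms2 starts.
Sgms2: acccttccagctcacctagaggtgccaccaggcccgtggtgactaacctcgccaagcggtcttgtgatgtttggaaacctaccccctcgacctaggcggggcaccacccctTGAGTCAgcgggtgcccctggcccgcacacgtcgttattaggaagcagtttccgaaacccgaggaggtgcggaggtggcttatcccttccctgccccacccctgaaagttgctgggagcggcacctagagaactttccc
AP-1 elements were in 6.75% of all 32851 promoter windows and in those of 4 of 37 members found in the table (Acer3, Sgms1, Sgms2 and Sphk1). GC boxes were in 32.7% of all windows and in those of 25 of the 37 members, and CACGTG, the E-box, in 6.02% and in those of 8. The forkhead element GTAAACA was in 3.17% of all windows and in those of 2 members, Elovl6 and Sgms2. TGACGTCA, the cAMP response element, was in 1.55%, ACANNNTGT, the core of the glucocorticoid receptor element, in 5.84%, and ACANNTGT, a palindrome known for Iroquois proteins of the fly, in 6.31% of all windows, and 0 members held any of these. Both strands were read. Members with several starts have several windows, and a member counted when any of its windows matched. The counts of members and the shares of windows are therefore in unlike units and cannot be compared. Matches describe the letters of these windows and are not binding sites.

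Of the 42 members, 41 reached 1 FPKM in at least 2 libraries and were tested, while Sgpp2, a second sphingosine 1-phosphate phosphatase, stayed under this filter at 0.183 to 0.490 FPKM. With limma on log2(FPKM + 1), adjusted over all 11643 rows tested, 10 members rose in Irx5KO and 4 fell at the threshold of 0.05, and 27 did not pass. These are 24.4% and 9.76% of the members tested, beside 26.9% and 9.22% of all rows tested, so neither share stood away from the background. The median log2 change was 0.17 over the members and 0.26 over all rows. After scaling by the median of ratios, which brings the median of all rows to 0.00, 4 members rose and 6 fell, beside 10.7% and 14.0% of all rows, and the median of the members was -0.11. Scaled to a fixed sum (TPM), 16 rose and 4 fell, beside 47.9% and 7.52% of all rows, and by quantiles 7 rose and 4 fell, beside 13.1% and 11.2%. A direction of a member that did not pass therefore depends on the scaling in many cases, and values rather than directions are given for these. The Irx5KO libraries lay above both WT libraries for 19 members tested (46.3%) and below both for 7 (17.1%). Over all rows tested these shares were 54.3% and 18.0%, and the genotypes overlapped for 15 members. Where a member passed, a lack of overlap comes from the same values as its call and adds no support to it.

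**Figure D1:**
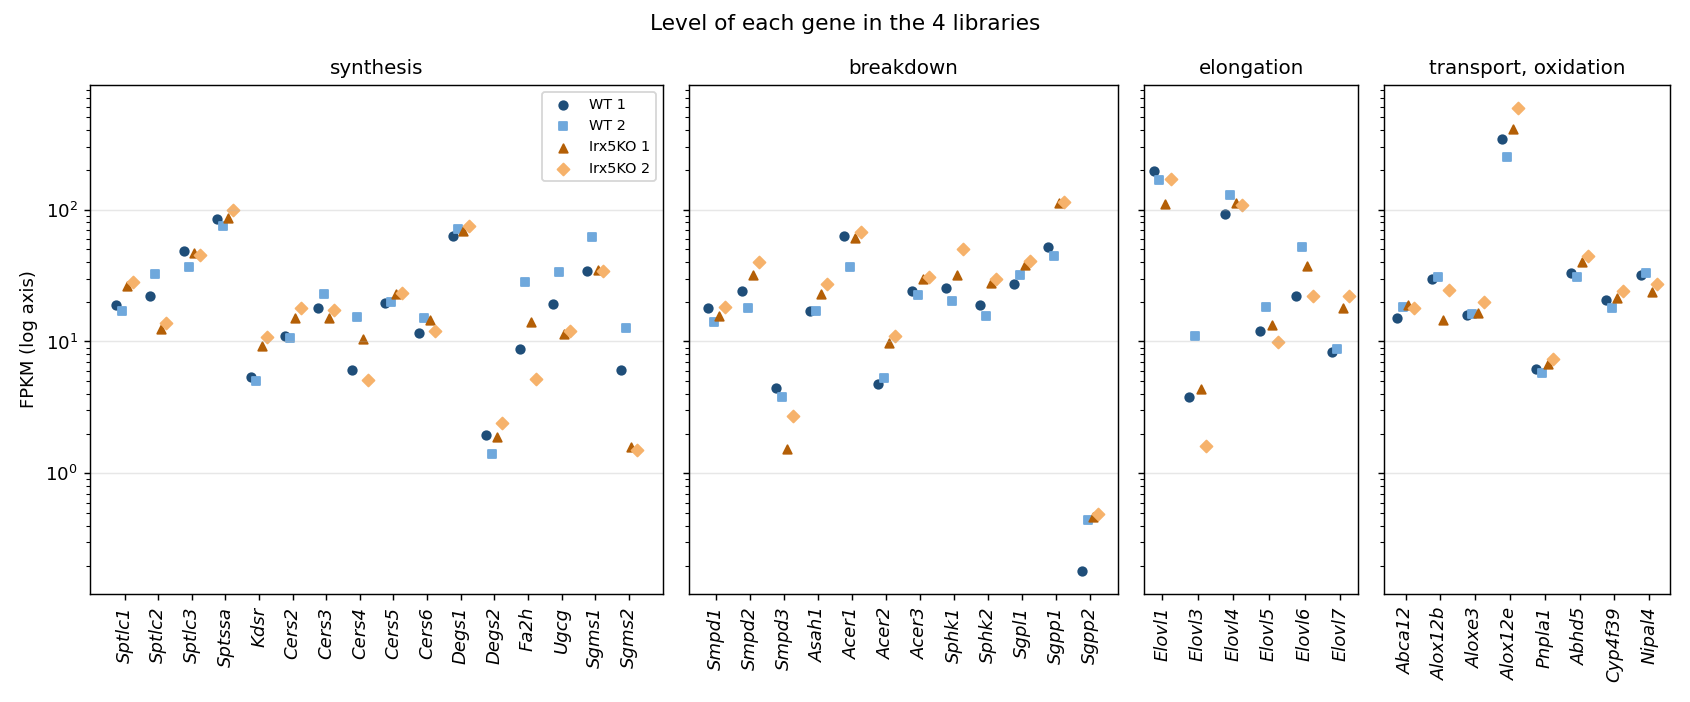
FPKM of the 42 members in each library on a log axis, grouped by role, with 1 point per library. Sgms2, Sptlc2 and Ugcg have both Irx5KO points under both WT points, and Sgpp1, Acer2 and Elovl7 have both above.

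A group of 6 members kept their call under all 14 alternatives other than leaving out the filter on low values. They were Sptlc2, Ugcg and Sgms2, all of synthesis and lower in Irx5KO, and Acer2, Sgpp1 and Elovl7, higher in Irx5KO. The share of all rows that kept their call in this way is not given here. The 6 therefore cannot be read as a trait of this set. In the GENCODE M21 annotation of mm10, Sptlc2 spans chr12:87305058-87388355, Sgpp1 chr12:75714249-75735729 and Sgms2 chr3:131318985-131491411, all on the minus strand. Ugcg spans chr4:59189257-59222833, Acer2 chr4:86874396-86934822 and Elovl7 chr13:108214404-108285683, all on the plus strand. None of these 6 genes has an exon that overlaps another annotated gene. The other 8 calls were each lost under at least 1 alternative, and these are named with the genes.

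**Figure D2:**
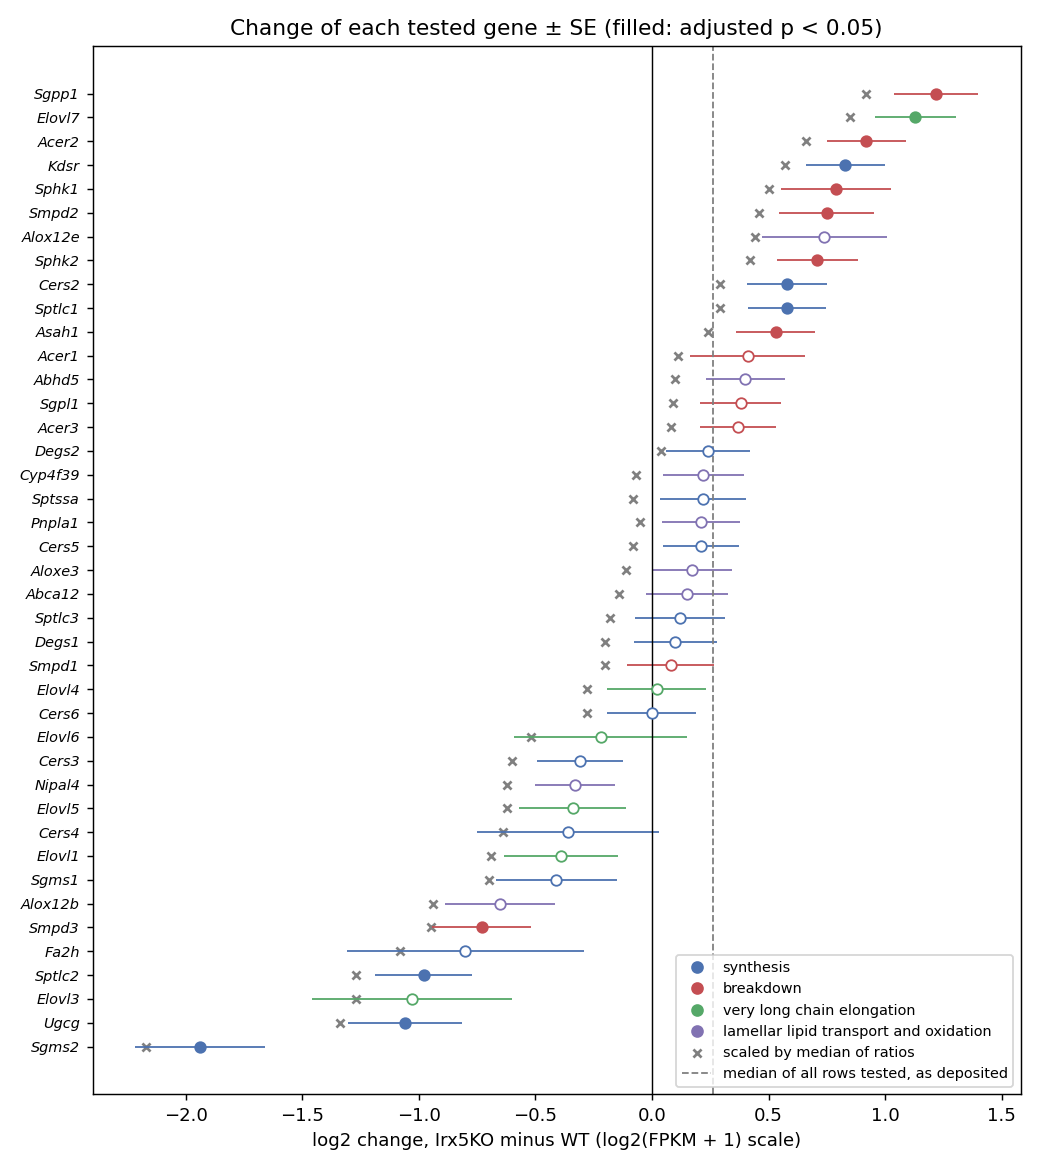
Log2 change of the 41 members tested, Irx5KO minus WT, with bars of 1 SE from limma, filled where the adjusted p passed the threshold, and crosses for the values after scaling by the median of ratios. The range runs from -1.94 for Sgms2 to 1.22 for Sgpp1, and the dashed line marks the median of all rows tested, 0.26.

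In the synthesis of sphingoid bases, ceramides and complex sphingolipids, Sptlc1, Kdsr and Cers2 rose and Sptlc2, Ugcg and Sgms2 fell, while 10 of 16 members did not pass. This is 18.8% in each direction, beside 26.9% higher and 9.22% lower over all rows, and the median log2 change was 0.05, beside 0.26. After scaling by the median of ratios, Kdsr rose and the same 3 fell, beside 10.7% and 14.0% of all rows, with a median of -0.24. Serine palmitoyltransferase, the enzyme that sets the rate of the pathway, needs Sptlc1 together with either Sptlc2 or Sptlc3. Sptlc1 was 18.8 and 16.9 FPKM in WT and 26.2 and 28.3 in Irx5KO, a log2 change of 0.58 (SE 0.167, adjusted p = 0.0258). Sptlc2 was 22.1 and 32.4 in WT and 12.4 and 13.8 in Irx5KO, and fell by 0.98 on the log2 scale (SE 0.208, adjusted p = 0.00797). The subunits of this enzyme therefore moved in opposite directions. The genotypes overlapped for neither, which adds no support beyond the calls. Sptlc3, which makes sphingoid bases of other chain lengths, was 48.6 and 36.6 FPKM in WT and 46.9 and 45.1 in Irx5KO, with overlap between genotypes (log2 change 0.12, adjusted p = 0.643). Sptlc2 made up 31.2% and 47.0% of the summed FPKM of Sptlc2 and Sptlc3 in WT and 20.9% and 23.4% in Irx5KO. Such a share does not depend on the scaling of a library. Sptssa, a small subunit that activates the enzyme, stood at 84.8 and 75.04 FPKM in WT and 87.0 and 99.2 in Irx5KO (log2 change 0.22, adjusted p = 0.379). The rise of Sptlc1 was lost after scaling by the median of ratios or by quantiles and without either Irx5KO library.

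The next steps reduce the sphingoid base and attach and desaturate its acyl chain. Kdsr, the reductase that follows serine palmitoyltransferase, was 5.35 and 4.996 FPKM in WT and 9.24 and 10.8 in Irx5KO (log2 change 0.83, SE 0.171, adjusted p = 0.00693). Its adjusted p was 0.0698 without Irx5KO replicate 2, the 1 alternative beside that without a filter under which the call was lost. Among the ceramide synthases, Cers2, which makes ceramides of very long acyl chains, was 10.98 and 10.6 FPKM in WT and 15.2 and 18.0 in Irx5KO (log2 change 0.58, SE 0.171, adjusted p = 0.0292). Its exons overlap those of Setdb1 on the opposite strand, which was 9.44 and 9.30 in WT and 16.1 and 14.2 in Irx5KO and also rose (adjusted p = 0.0181), and counting by strand is not stated. Like Sptlc1, Cers2 lost its call after either of these scalings and without either Irx5KO library.

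Cers3, the synthase of the ultra long acylceramides of the epidermis, was 18.0 and 22.7 FPKM in WT and 15.1 and 17.2 in Irx5KO (log2 change -0.31, adjusted p = 0.209). Both Irx5KO values were under both WT values, but the difference did not pass. As a share of the 5 synthases, Cers3 made up 27.1% and 27.2% in WT and 19.3% and 22.7% in Irx5KO, and Cers2 16.6% and 12.7% in WT and 19.5% and 23.8% in Irx5KO, so that Cers3 outweighed Cers2 in both WT libraries and Cers2 stood slightly above Cers3 in both Irx5KO libraries. These shares were not tested. Cers5 and Cers6, which make ceramides of shorter chains, had means of 19.7 ± 0.106 and 13.3 ± 2.51 FPKM in WT (SD, n = 2) and of 23.1 ± 0.409 and 13.3 ± 1.74 in Irx5KO, and neither passed. Degs1, the desaturase that turns dihydroceramide into ceramide, ranged from 62.8 to 74.7 FPKM over the 4 libraries, and Degs2, which also hydroxylates it to phytoceramide, from 1.40 to 2.39, and neither passed.

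**Figure D3:**
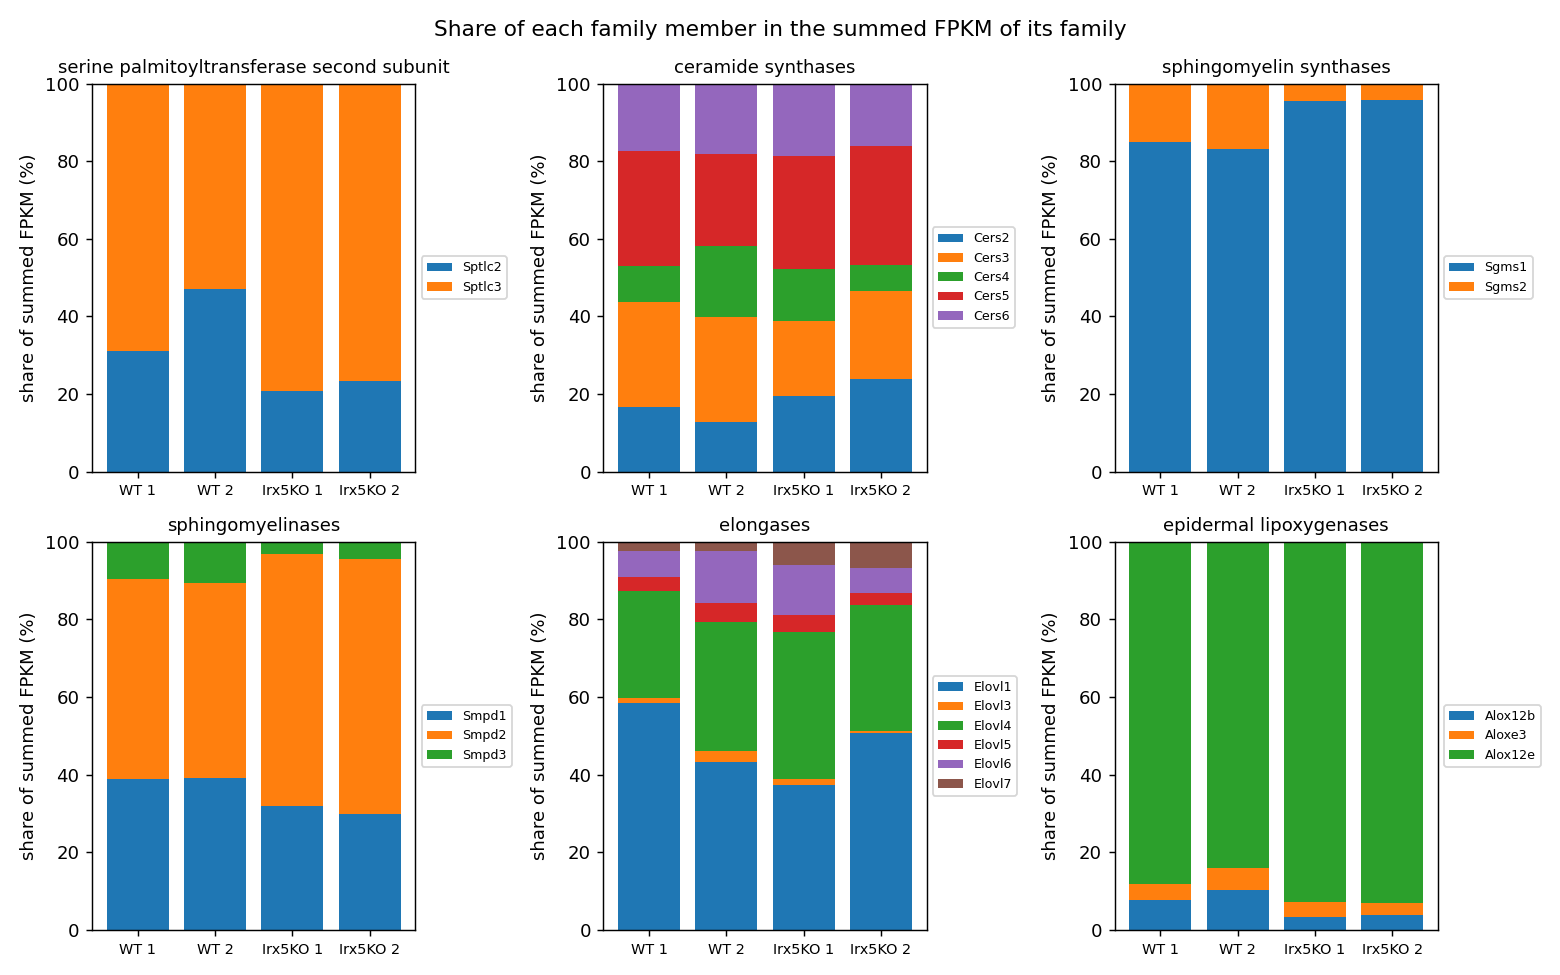
Share of each gene in the summed FPKM of its enzyme family, in percent, with 1 bar per library. Sptlc2 is at 31.2% and 47.0% in WT and 20.9% and 23.4% in Irx5KO, and Sgms2 at 15.1% and 16.9% in WT and 4.38% and 4.20% in Irx5KO.

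Of the enzymes that turn ceramide into complex sphingolipids, Ugcg and Sgms2 fell and Sgms1 did not pass. Ugcg, the glucosylceramide synthase that makes the lipid loaded into lamellar granules, was 19.4 and 33.8 FPKM in WT and 11.5 and 12.1 in Irx5KO. It fell by 1.06 on the log2 scale (SE 0.244, adjusted p = 0.0112), with no overlap of the genotypes although the WT libraries themselves lay far apart. The log2 change of Ugcg was -0.67 without WT replicate 2 and -1.44 without WT replicate 1, and it passed in both. Sgms2, a sphingomyelin synthase of the plasma membrane and Golgi, was 6.05 and 12.7 FPKM in WT and 1.59 and 1.51 in Irx5KO, where its mean was 16.6% of that of WT. Its log2 change was -1.94 (SE 0.278, adjusted p = 0.00143), and both Irx5KO libraries stood far under the lower WT library. Sgms1, the sphingomyelin synthase of the Golgi, was 34.1 and 62.1 FPKM in WT and 34.6 and 34.5 in Irx5KO (log2 change -0.41, adjusted p = 0.245). WT replicate 1 was thus at the level of the Irx5KO libraries, and the genotypes overlapped. Within the pair of synthases, Sgms2 contributed 15.1% and 16.9% in WT and 4.38% and 4.20% in Irx5KO, so the replicates were close although WT replicate 2 had more of both mRNAs.

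Of the 12 members that break sphingolipids down, Smpd2, Asah1, Acer2, Sphk1, Sphk2 and Sgpp1 rose, Smpd3 fell, 4 did not pass and Sgpp2 was not tested, and the median log2 change was 0.53, beside 0.26 over all rows. These are 54.5% of the 11 tested that rose and 9.09% that fell, beside 26.9% and 9.22% of all rows. Scaled by the median of ratios, Acer2 and Sgpp1 rose and Smpd3 fell (18.2% and 9.09%, beside 10.7% and 14.0% of all rows), and the median was 0.24, beside 0.00. The count that rose was 3 without WT replicate 2, beside 21.1% of all rows, and 2 without Irx5KO replicate 2, beside 13.7%. It was 4 without Irx5KO replicate 1, beside 12.5% of all rows, and 7 without WT replicate 1, beside 34.8%.

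Sphingomyelinases release ceramide from sphingomyelin. Smpd1, the acid form of lysosomes, which also acts on secreted lamellar lipid, was 18.1 and 14.1 FPKM in WT and 15.6 and 18.3 in Irx5KO, with overlap (log2 change 0.08, adjusted p = 0.757). Smpd2, a neutral form, was 24.0 and 18.1 in WT and 31.7 and 40.4 in Irx5KO (log2 change 0.75, SE 0.203, adjusted p = 0.0209). Smpd3, the neutral form of the Golgi, was 4.44 and 3.79 in WT and 1.54 and 2.74 in Irx5KO, and fell by 0.73 on the log2 scale (SE 0.213, adjusted p = 0.0277). The neutral forms thus moved apart. The genotypes overlapped in neither, which adds no support beyond the calls. Smpd2 made up 51.6% and 50.3% of the 3 genes in WT and 64.9% and 65.7% in Irx5KO, and Smpd3 9.54% and 10.6% against 3.14% and 4.46%. The call of Smpd2 was lost after scaling by the median of ratios and without WT replicate 2 or Irx5KO replicate 2, and that of Smpd3 without WT replicate 1, WT replicate 2 or Irx5KO replicate 1 (log2 change -0.45 in the last). Exons of Smpd2 overlap those of Mical1, at 4.41 to 6.08 FPKM, and exons of Smpd3 those of Prmt7, at 9.96 to 15.6 FPKM, both on the opposite strand, and neither neighbour passed.

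Ceramidases cleave ceramide to sphingosine. Acer2, the alkaline ceramidase of the Golgi, was 4.75 and 5.24 FPKM in WT and 9.75 and 10.96 in Irx5KO, a mean 2.07-fold higher (log2 change 0.92, SE 0.169, adjusted p = 0.00426). Asah1, the acid ceramidase of lysosomes, was 17.0 and 17.2 in WT and 23.1 and 27.2 in Irx5KO (log2 change 0.53, SE 0.170, adjusted p = 0.0400). For both genes the libraries of each genotype were close together and the genotypes were apart, but the call of Asah1 was lost under 6 of the 14 alternatives, among them both of the named scalings and the replicate block. Acer1, the most abundant ceramidase and the one known from differentiated epidermis, was 62.6 and 36.9 FPKM in WT and 60.8 and 67.4 in Irx5KO (log2 change 0.41, adjusted p = 0.223). Acer3, which acts on unsaturated ceramides, was 24.0 and 22.4 in WT and 29.97 and 30.6 in Irx5KO (log2 change 0.37, adjusted p = 0.106). The share of Acer2 among the 4 ceramidases was 4.38% and 6.42% in WT and 7.89% and 8.05% in Irx5KO, so that it remained a minor form by level.

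Sphingosine is then phosphorylated, and sphingosine 1-phosphate, a lipid that also signals through cell surface receptors, is either dephosphorylated again or cleaved for good. Sgpp1, the phosphatase that returns it to sphingosine, was 52.0 and 44.7 FPKM in WT and 112 and 115 in Irx5KO, a mean 2.35-fold higher (log2 change 1.22, SE 0.180, adjusted p = 0.00167). This was the highest log2 change of the 41 members tested, and Sgpp1 supplied at least 99.0% of the summed FPKM of the 2 phosphatases in each library. The kinases that act in the other direction also rose. Sphk1 was 25.5 and 20.3 FPKM in WT and 31.8 and 50.3 in Irx5KO (log2 change 0.79, SE 0.236, adjusted p = 0.0303), and Sphk2 was 19.0 and 15.6 in WT and 27.8 and 29.7 in Irx5KO (log2 change 0.71, SE 0.175, adjusted p = 0.0147). The Irx5KO libraries lay above the WT libraries for both, with a wide gap between the Irx5KO libraries for Sphk1. The rise of Sphk1 was lost after scaling by the median of ratios or by quantiles and without WT replicate 2 or Irx5KO replicate 2 (log2 change 0.46 in the last), and that of Sphk2 after scaling by the median of ratios and without either Irx5KO library. Exons of Sphk2 overlap those of Rpl18, at 834 to 1333 FPKM, and of Dbp, which was 2.62 and 4.17 in WT and 14.2 and 11.4 in Irx5KO and rose (adjusted p = 8.92e-04), both on the opposite strand. Sgpl1, the lyase that ends the pathway, was 27.5 and 32.2 FPKM in WT and 37.7 and 40.6 in Irx5KO, without overlap but without passing (log2 change 0.38, adjusted p = 0.112).

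Very long chain elongation held 1 member that rose, Elovl7, and 5 that did not pass, with a median log2 change of -0.28, beside 0.26 over all rows. The 1 of 6 is 16.7%, beside 26.9% of all rows that rose. Elovl7, which elongates saturated long chain acyl groups, was 8.34 and 8.73 FPKM in WT and 17.9 and 22.1 in Irx5KO, a mean 2.34-fold higher (log2 change 1.13, SE 0.175, adjusted p = 0.00208). By level it was small beside the elongases most used in the epidermis: its share of the summed FPKM of the 6 elongases was 2.50% and 2.27% in WT and 6.06% and 6.60% in Irx5KO. Elovl1, the elongase of saturated very long chains, was the most abundant in WT, at 195 and 167 FPKM, and was 111 and 170 in Irx5KO, with Irx5KO replicate 1 alone under the other 3 libraries (log2 change -0.39, adjusted p = 0.230). Elovl4, which makes the ultra long chains of acylceramides, was 92.0 and 129 FPKM in WT and 112 and 109 in Irx5KO (log2 change 0.02, SE 0.213, adjusted p = 0.949). The genotype means of Elovl4 were 110.3 ± 25.9 in WT and 110.3 ± 2.29 in Irx5KO (SD, n = 2), and the Irx5KO values lay between the WT values.

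The remaining elongases differed mainly between libraries of one genotype. Elovl3, known for the lipids of sebaceous glands, was 3.82 and 10.96 FPKM in WT and 4.33 and 1.60 in Irx5KO (log2 change -1.03, SE 0.428, adjusted p = 0.0886). Elovl5, which elongates polyunsaturated chains, was 11.98 and 18.3 in WT and 13.3 and 9.90 in Irx5KO, and Elovl6, which elongates palmitate, was 21.9 and 52.0 in WT and 37.5 and 22.2 in Irx5KO. In all 3, WT replicate 2 was highest, Irx5KO replicate 1 was next, and the genotypes overlapped. Fa2h, which adds a hydroxyl group to the fatty acid of ceramide, followed the same order with 8.73 and 28.2 FPKM in WT and 14.0 and 5.21 in Irx5KO (log2 change -0.80, SE 0.508, adjusted p = 0.239). Cers4, the ceramide synthase known from sebaceous glands and hair follicles, was 6.10 and 15.2 in WT and 10.4 and 5.08 in Irx5KO (log2 change -0.36, adjusted p = 0.484). The order WT replicate 2, Irx5KO replicate 1, WT replicate 1, Irx5KO replicate 2, chosen here after its values were seen, was shown by Cers4, Fa2h, Elovl3 and Elovl5, 4 of 41 members tested, and by 1.52% of all rows tested.

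Sebocyte markers went the same way. Of the 12 used, which leave out Elovl3, 6 stood in that same order, 11 were highest in WT replicate 2, and 10 were also lowest in Irx5KO replicate 2. Over all rows tested these shares were 1.52%, 16.6% and 5.52%, and of the 41 members tested the counts were 4, 14 and 5. Their summed level was 321 and 465 FPKM in WT and 381 in both Irx5KO libraries, a sum to which Acsbg1 alone gave 160 and 158 in WT and 226 and 260 in Irx5KO. All 6 melanocyte markers were highest in WT replicate 2 too, with a sum of 29.99 FPKM there and of at most 13 FPKM in the other libraries. So were 5 of the 6 fibroblast markers, with a sum of 4.37 FPKM in that library. The part of these markers in the values of these members was not tested. Without WT replicate 1, Fa2h, Elovl3 and Elovl5 passed as lower in Irx5KO, and without Irx5KO replicate 1, Fa2h, Elovl3 and Cers4 did (Cers4 log2 change -0.82, adjusted p = 0.0431). With all 4 libraries and a replicate block in limma, Elovl3 (adjusted p = 1.21e-05) and Fa2h (adjusted p = 0.00185) passed too, although no pairing of the libraries by number is known here. Without WT replicate 2, the log2 changes were -0.37 for Elovl3, -0.01 for Fa2h, -0.06 for Elovl5 and 0.23 for Cers4, and none of the 4 passed.

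**Figure D4:**
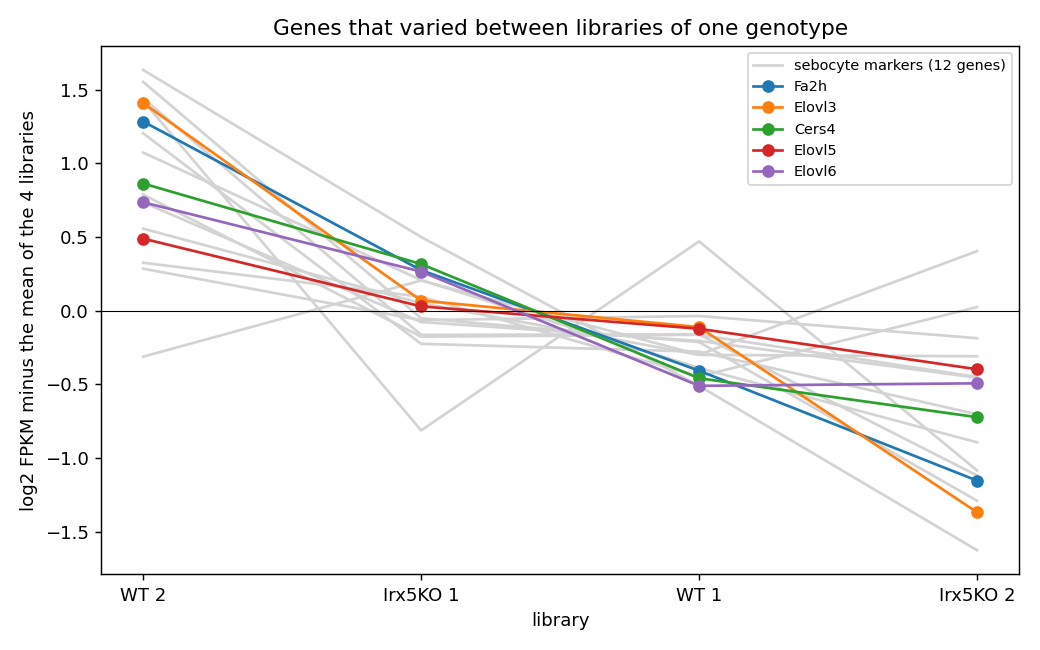
Log2 FPKM of Cers4, Fa2h, Elovl3, Elovl5 and Elovl6 in each library minus the mean over the 4 libraries of that gene, with the 12 sebocyte markers in grey. All 5 members and 11 of the 12 markers are highest in WT replicate 2, as are 14 of 41 members tested and 16.6% of all rows tested.

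Lamellar lipid transport and oxidation had 0 of 8 members past the threshold with limma, beside 26.9% higher and 9.22% lower over all rows, with a median log2 change of 0.19, beside 0.26. After scaling by the median of ratios 2 of 8 fell (Alox12b and Nipal4), beside 14.0% of all rows. Scaled to a fixed sum, 2 of 8 rose (Abhd5 and Alox12e), beside 47.9% of all rows. With quantiles 1 of 8 rose (Alox12e), beside 13.1% of all rows. At an unadjusted p under 0.05 with limma, 2 were higher (Alox12e and Abhd5) and 1 was lower (Alox12b). The share of all rows at that level is not given here. Abca12, the transporter that fills lamellar granules with glucosylceramide, was 14.96 and 18.4 FPKM in WT and 19.1 and 17.9 in Irx5KO (log2 change 0.15, SE 0.176, adjusted p = 0.535), with overlap. Among the lipoxygenases, Alox12b, which oxidises the linoleate of acylceramides, was 29.8 and 31.0 FPKM in WT and 14.6 and 24.7 in Irx5KO (log2 change -0.65, SE 0.236, adjusted p = 0.0594). Its Irx5KO values were both under those of WT and far from each other, and it passed as lower under 4 of 14 alternatives, among them scaling by the median of ratios (log2 change -0.94, adjusted p = 0.0239). Aloxe3, which acts on the product of Alox12b, was 15.8 and 16.1 in WT and 16.5 and 19.8 in Irx5KO (log2 change 0.17, adjusted p = 0.455). Alox12e, an epidermal lipoxygenase of the mouse and the most abundant member, was 343 and 249.7 in WT and 408 and 588 in Irx5KO (log2 change 0.74, SE 0.269, adjusted p = 0.0584). It passed as higher under 7 of 14 alternatives, among them quantiles (log2 change 1.29, adjusted p = 0.00287) and the fixed sum (0.99, adjusted p = 4.23e-04), and its log2 change was 0.44 after scaling by the median of ratios. Alox12e made up 88.3% and 84.1% of the summed FPKM of the 3 lipoxygenases in WT and 92.9% and 93.0% in Irx5KO, while Alox12b made up 7.67% and 10.4% in WT and 3.33% and 3.91% in Irx5KO.

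The genes of acylceramide assembly did not pass as deposited. Pnpla1, the transacylase that completes acylceramide, was 6.17 and 5.73 FPKM in WT and 6.71 and 7.37 in Irx5KO (log2 change 0.21, adjusted p = 0.342). Abhd5, the cofactor that serves Pnpla1 and other lipases, was 32.8 and 30.7 in WT and 40.2 and 44.2 in Irx5KO (log2 change 0.40, SE 0.169, adjusted p = 0.0925). Cyp4f39, whose human counterpart CYP4F22 hydroxylates the end of ultra long chains, was 20.7 and 18.1 in WT and 21.2 and 24.2 in Irx5KO (log2 change 0.22, adjusted p = 0.342). In all 3, both Irx5KO libraries were above both WT libraries by margins that did not pass, as was so for 54.3% of all rows. Nipal4, the ichthyosis gene ichthyin, was 31.7 and 33.0 in WT and 23.8 and 27.4 in Irx5KO (log2 change -0.33, adjusted p = 0.157), and passed as lower after scaling by the median of ratios (log2 change -0.62, adjusted p = 0.0309).

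Beside the 42 members, 74 further genes of the same pathways were listed, of which 58 passed the filter. Among these, 13 rose (22.4%) and 7 fell (12.1%), with a median log2 change of 0.25, beside 26.9% and 9.22% of all rows and a median of 0.26. After scaling by the median of ratios, 3 rose (5.17%) and 8 fell (13.8%), beside 10.7% and 14.0% of all rows. The 8 genes with the smallest p included a gene for the step after Ugcg. B4galt5, which adds galactose to glucosylceramide to make lactosylceramide, was 2.35 and 2.41 FPKM in WT and 0.358 and 0.459 in Irx5KO (log2 change -1.26, adjusted p = 7.51e-04). Gla, the lysosomal alpha-galactosidase that removes galactose from globosides, was 4.87 and 5.68 in WT and 1.22 and 1.52 in Irx5KO (log2 change -1.40, adjusted p = 6.87e-04). Tgm1, the transglutaminase of the cornified envelope, was 37.5 and 55.4 in WT and 14.6 and 21.2 in Irx5KO (log2 change -1.32, adjusted p = 0.00411), and it is also 1 of the 7 granular markers used. These 3 fell, with no overlap of the genotypes, but they were named for their small p, so the lack of overlap adds no support. Irx5KO lay below both WT libraries for 18.0% of all rows tested. B4galt5 was under 1 FPKM in both Irx5KO libraries and passed the filter only through WT.

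The other 5 rose. Aldh3a2, the fatty aldehyde dehydrogenase that handles the aldehyde released by Sgpl1 and is mutated in Sjögren-Larsson syndrome, was 10.4 and 8.34 FPKM in WT and 19.9 and 22.8 in Irx5KO (log2 change 1.11, adjusted p = 0.00249). S1pr5, a receptor for sphingosine 1-phosphate, was 10.6 and 6.03 in WT and 16.6 and 18.2 in Irx5KO (log2 change 1.03, adjusted p = 0.0112). Vps33b, a sorting protein needed for lamellar granules, was 6.73 and 5.54 in WT and 12.6 and 10.98 in Irx5KO (log2 change 0.84, adjusted p = 0.00774). For these genes the lower Irx5KO library exceeded the higher WT library, as for 54.3% of all rows tested, and they too were named for their small p. Lipm, an epidermal lipase, was 43.7 and 39.6 in WT and 66.5 and 73.9 in Irx5KO (log2 change 0.74, adjusted p = 0.0125), and Fads1, a desaturase of polyunsaturated chains, 1.17 and 1.46 in WT and 2.62 and 2.84 in Irx5KO (log2 change 0.69, adjusted p = 0.0129). Lipm and Fads1 did not pass after scaling by the median of ratios, under which Aldh3a2, S1pr5 and Vps33b were the 3 that rose.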

How the data were processed

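Whole epidermis of 2 WT and 2 Irx5KO mice was measured by single-end RNA-seq of RNA with an integrity number above 8, per the labels' protocols, which name both a SMARTER and an Illumina library kit. The authors deposited FPKM values in 1 table. Bowtie2, DESeq2 and the build mm10 are named in the submitters' processing notes, without their roles, and the step to FPKM, the annotation and the use of strand are each not given in the sources used here. Counts were not used here, and no count model was run. Depth was estimated from low values of genes with 1 transcript, where 68.0% to 70.0% of values lay within 0.1 of a whole fragment (20.0% would by chance).

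Rows reaching 1 FPKM in 2 or more libraries were tested with limma 3.58.1 (R 4.3.3) on log2(FPKM + 1), with an intensity trend, 2-sided, Benjamini-Hochberg adjusted over 11643 rows. Fold changes on this scale understate the change of low genes. The smallest p of an exact permutation test with 2 libraries in each genotype is 0.333, so every p rests on the model and on the spread between these libraries. The members, roles, further genes and markers were chosen with earlier results of these data known. Members are all named, as are the 8 further genes of smallest p. Of the further genes, 6 were matched through RefSeq synonyms, and 2 markers (Flg and Trdc) were not analysed here. Exon overlaps come from GENCODE M21 (mm10): 16 of 42 members have an exon that overlaps another annotated gene. Promoters and starts come from RefSeq GRCm38.p6, positions are 1-based, and 37 of 42 members matched. The alternatives were 4 scalings, another pseudocount (0.1), no filter, a filter on the mean (5 FPKM), no trend, a robust prior, the sum of rows that share a symbol, a replicate block and leaving out each library, 15 in all.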

Additional observations from a re-analysis of the deposited data

How the results depend on the processing

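Directions of members that passed did not reverse under any alternative, and 6 of 14 calls held under all but 1, the fit without a filter. The share of calls over all rows that held in this way is not given here. Without the filter, 28 rows rose and 18 fell, and 0 members and 0 further genes passed in either direction with limma. At an unadjusted p under 0.05 in that fit, 13 members were higher and 3 lower, and 15 further genes higher and 5 lower. The share of all rows at that level is not given here, and the cause of the lost calls was not tested. With a mean of at least 5 FPKM, 1898 rows rose and 4 further genes fell, with fewer rows tested. After scaling by the median of ratios, 1250 rows rose and 1626 fell, 4 members and 3 further genes rose, and uncalled members changed sign: Sptlc3 (-0.18), Sptssa (-0.08), Cers5 (-0.08), Cers6 (-0.28), Degs1 (-0.20), Smpd1 (-0.20), Elovl4 (-0.28), Abca12 (-0.14), Aloxe3 (-0.11), Pnpla1 (-0.05) and Cyp4f39 (-0.07). With quantiles, 1526 rows rose, and Cers6 (-0.21), Degs2 (-0.00), Smpd1 (-0.12), Abca12 (-0.01), Aloxe3 (-0.01) and Pnpla1 (-0.09) changed sign. Scaled to a fixed sum (TPM), 5577 rows (47.9%), 16 members and 30 further genes rose, 3 further genes fell, and Elovl6 became 0.02. Scaled without the 100 most abundant rows, 4796 rows and 23 further genes rose. The median of all rows was 0.00, 0.08, 0.50 and 0.39 under these scalings, in the order given. Leaving out each library in turn, 1457 to 4048 rows rose and 725 to 1275 fell, 3 to 12 members rose and 3 to 8 fell, and 5 to 18 further genes rose and 3 to 5 fell. The lowest count of members that rose came without Irx5KO replicate 2, and the highest count that fell without WT replicate 1. Uncalled members that changed sign when a library was left out ranged from -0.18 to 0.18 (Cers6), -0.22 to 0.26 (Elovl4), -0.08 to 0.32 (Sptlc3), -0.96 to 0.23 (Cers4), -0.83 to 0.02 (Sgms1), -0.09 to 0.25 (Smpd1) and -0.83 to 0.38 (Elovl6). Over the rows tested, libraries of the same number did not deviate together (correlation -0.0674). This value alone cannot tell whether the numbers pair the libraries, which was not tested further. With a replicate block 9 members rose and 7 fell, and the share of all rows called in that fit is not given here. At the estimated depth the lowest member tested, Degs2, rests on at least 129 fragments in each library.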
